A study of Rattus norvegicus with 10 samples.

Results

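Cholinergic and motor neuron genes were followed in the lumbar enlargement of rats that had received morphine or saline, with 1 microarray per rat. The 8 genes listed were Chat, Slc18a3, Slc5a7, Ache, Isl1, Mnx1, Prph and Chodl, and a gene was taken as measured if the RefSeq accession of an mRNA probe on the array belonged to it. This rule found 4 genes, Slc18a3 (NM_031663.2), Slc5a7 (NM_053521.1), Isl1 (NM_017339.3) and Prph (NM_012633.2), each with 1 probe printed as 1 spot. No probe matched Chat, Ache, Mnx1 or Chodl by accession, and these genes were not analysed here. The 4 genes stand among 13372 mRNAs and 20283 RNAs that passed the filter on dim probes. All rats were adult male Sprague Dawley rats of 240 to 260 g, injected intrathecally with 10 μl 2 times a day for 7 days. In the morphine tolerance (MT) group, rats 1 to 5, the volume held 10 μg of morphine, and in the normal saline (NS) group, rats 6 to 10, it held none. The study anesthetized the rats and took tissue on day 8, 1 hour after that day's morning injection of morphine or saline. Both groups carried the same route and number of injections, and no uninjected rat was on the arrays. The labels and methods give 1 array per rat, and whole tissue was used, so every value is a mean over all cells of the piece.

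Motor neurons of the ventral horn use acetylcholine as their transmitter. Choline acetyltransferase (Chat) makes acetylcholine from choline, the vesicular transporter Slc18a3 loads it into synaptic vesicles, acetylcholinesterase (Ache) cleaves it in the synaptic cleft, and the transporter Slc5a7 takes the choline back into the terminal. Isl1 and Mnx1 are homeobox transcription factors of developing motor neurons, Prph is peripherin, an intermediate filament protein of neurons whose axons leave the central nervous system, and Chodl is a membrane protein of fast motor neurons. Isl1 and Prph are also made by sensory neurons of the dorsal root ganglia. The comparison of the MT with the NS group asks whether these genes differed after repeated intrathecal morphine. As the last injection came shortly before the tissue was taken, its effects and those of the earlier injections cannot be told apart.

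The median spot intensity of an array was 74.4 to 89.6 in the MT group and 29.8 to 101 in the NS group, and 81.1% to 83.9% and 58.6% to 79.6% of spots were well above background. The scan times in the scanner output form 3 sets of arrays. Scan 1 held MT rats 1, 3, 4 and 5, scan 2 held MT rat 2 and NS rats 6, 7 and 10, and scan 3 held NS rats 8 and 9, the dimmest arrays, which were scanned on another day. As only scan 2 holds both groups, group and scan are largely confounded. All 13 accessions of the 7 glial genes and all 10 general neuronal genes tested were well above background on the 10 arrays. This was common, as 15528 RNAs passed a filter on all 10 arrays. These lists do not mark the level of the cord.

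The RefSeq promoters of the 3 genes that carry the findings are printed to show the sequence in front of genes whose intensities moved together from rat to rat, as described further on. Each runs 5′ to 3′ on the gene's strand, from 250 bases before to 50 bases after the annotated start, in the RefSeq table of GRCr8. Slc18a3 is at chr16:7722765-7723064 on the minus strand, Slc5a7 at chr9:7953460-7953759 on the minus strand and Prph at chr7:132097039-132097338 on the plus strand. Capitals mark matches, on either strand, to the motifs searched.
Slc18a3: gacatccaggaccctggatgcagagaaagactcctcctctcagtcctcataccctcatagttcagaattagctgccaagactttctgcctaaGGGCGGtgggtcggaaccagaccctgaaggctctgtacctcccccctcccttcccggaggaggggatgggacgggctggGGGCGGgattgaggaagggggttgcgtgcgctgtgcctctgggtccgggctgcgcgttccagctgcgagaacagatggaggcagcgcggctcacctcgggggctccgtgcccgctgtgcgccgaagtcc
Slc5a7: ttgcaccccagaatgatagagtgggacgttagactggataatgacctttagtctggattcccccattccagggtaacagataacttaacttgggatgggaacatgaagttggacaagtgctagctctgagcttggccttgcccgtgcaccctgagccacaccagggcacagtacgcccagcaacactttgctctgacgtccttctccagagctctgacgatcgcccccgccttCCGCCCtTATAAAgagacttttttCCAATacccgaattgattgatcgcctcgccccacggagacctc
Prph: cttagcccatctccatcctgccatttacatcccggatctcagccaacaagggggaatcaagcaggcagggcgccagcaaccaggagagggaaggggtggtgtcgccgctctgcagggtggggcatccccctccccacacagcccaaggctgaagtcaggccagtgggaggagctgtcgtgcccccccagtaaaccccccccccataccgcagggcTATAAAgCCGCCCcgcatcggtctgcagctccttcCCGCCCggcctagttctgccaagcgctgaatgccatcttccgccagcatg

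The motifs searched on both strands were the GC box GGGCGG, the TATA box TATAAA, the CCAAT box CCAAT, the cyclic AMP response element TGACGTCA, the homeodomain core TAATTA and the REST site parts CAGCACC and GGACAG, and none of the matches overlapped. All 3 promoters held the GC box, with 2 copies in Slc18a3, 1 in Slc5a7 and 2 in Prph, and the letters are found in 33.1% of the 33469 RefSeq promoters of the same length. TATAAA began at base 241 of the Slc5a7 window and at base 216 of the Prph window, and it is found in 14.2% of promoters. CCAAT was found in Slc5a7 and in 37.5% of promoters. Neither the cyclic AMP response element (1.83% of promoters), the homeodomain core (5.36%) nor a REST site part (6.78% and 21.7%) was found in these 3 windows. The promoter of Isl1 (GRCr8) held 1 CAGCACC and 1 CCAAT. The GC content was 64.3% for Slc18a3, 53% for Slc5a7, 64.3% for Prph and 60.3% for Isl1, against a median of 51.7% over all promoters. In the RefSeq annotation Slc18a3 lies within the Chat gene. These matches are descriptions of letters and were not tested as binding sites.

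None of the 4 genes passed an adjusted p of 0.05 or met the study's criteria between the MT and NS groups with the values as normalized here, although Isl1 met the criteria under other settings given with its values, and the MT mean exceeded the NS mean by 0.22 to 0.34 on the log2 scale. For the transporter that fills the vesicles, Slc18a3, the normalized log2 intensities of MT rats 1 to 5 were 12.78, 12.97, 12.26, 13.10 and 12.90. Those of NS rats 6 to 10 were 12.90, 12.39, 12.57, 12.23 and 12.20. MT rat 3 lay with the low NS rats 7, 9 and 10 and NS rat 6 with the high MT rats, so the groups overlapped. The mean was 12.80 ± 0.33 (SD, n = 5) in MT and 12.46 ± 0.29 (SD, n = 5) in NS, a difference of 0.34 (SE 0.18, 95% interval -0.06 to 0.75). In linear terms MT was 1.27-fold NS, with an interval from 0.960 to 1.68. Neither limma's moderated test (P = 0.0860, adjusted p = 0.372 over all 20283 RNAs) nor the exact permutation test over all assignments of the rats (two-sided, p = 0.111) separated the groups.

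For the choline transporter Slc5a7, the log2 intensities of MT rats 1 to 5 were 12.15, 12.23, 11.48, 12.44 and 12.09. Those of NS rats 6 to 10 were 12.14, 11.58, 12.19, 11.94 and 11.46. MT rat 3 and NS rats 7 and 10 were the lowest, and the groups overlapped. The mean was 12.08 ± 0.36 (SD, n = 5) in MT and 11.86 ± 0.33 (SD, n = 5) in NS, a difference of 0.22 (SE 0.20, 95% interval -0.23 to 0.66). The limma test gave an adjusted p of 0.616 and the exact permutation test p = 0.325.

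For Prph, the filament protein, the log2 intensities of MT rats 1 to 5 were 14.90, 14.99, 14.28, 15.19 and 15.03. Those of NS rats 6 to 10 were 15.00, 14.22, 14.93, 14.58 and 14.27. The same 3 rats were the lowest, the groups overlapped, and MT rat 4 was the highest in all 3 of these genes. The mean was 14.88 ± 0.35 (SD, n = 5) in MT and 14.60 ± 0.36 (SD, n = 5) in NS, a difference of 0.28 (SE 0.21, 95% interval -0.18 to 0.74). The limma test gave an adjusted p of 0.528 and the exact permutation test p = 0.238.

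The transcription factor Isl1 was dim. Its log2 intensities were 4.40, 4.64, 4.11, 4.88 and 4.84 in MT rats 1 to 5, all well above background. In NS rats 6 to 10 they were 4.46, 3.25, 5.21, 4.86 and 3.57, and rats 7 and 9 were not well above background. The NS rats enclosed the MT rats on both sides, and the 2 NS rats of scan 3 were among the 3 highest of all. The mean was 4.58 ± 0.32 (SD, n = 5) in MT and 4.27 ± 0.83 (SD, n = 5) in NS, a difference of 0.31 (SE 0.36, 95% interval -0.50 to 1.11). The limma test gave an adjusted p of 0.696 and the exact permutation test p = 0.468. This value depended on the scaling and on scan 3. The study called an RNA by a fold over 1.5, taken here as linear, together with P under 0.05 without adjustment. Isl1 met these criteria with arrays scaled by their 75th percentile (0.59, limma adjusted p = 0.172) and without scan 3 (0.81, limma adjusted p = 0.222), and its adjusted p was 0.172 to 1.00 over all alternatives.

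**Figure D1:**
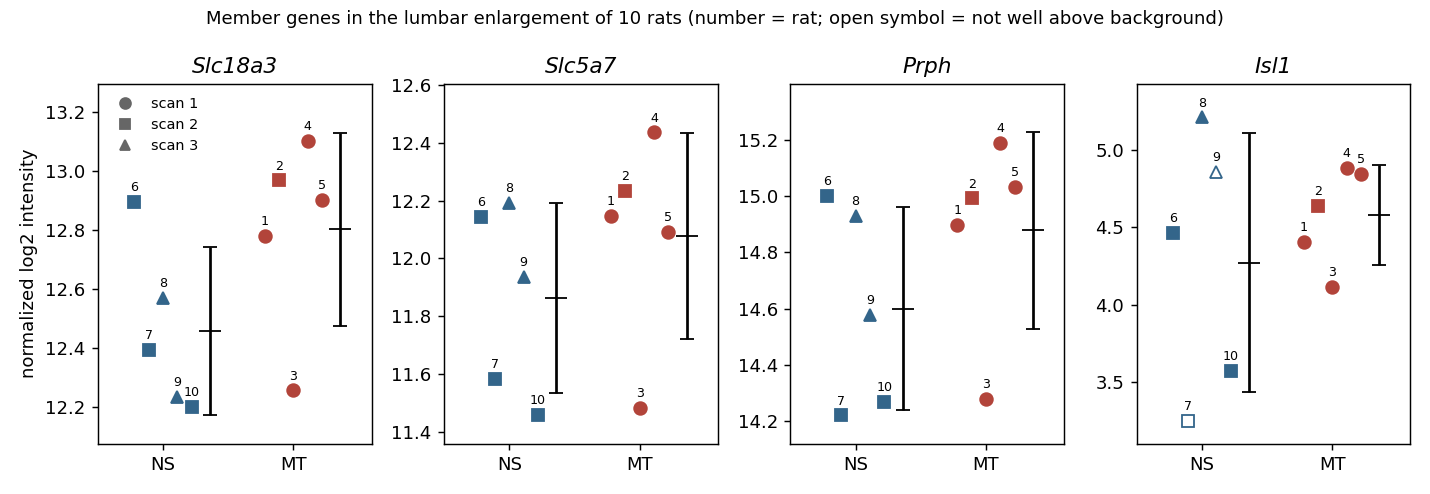
Normalized log2 intensity (y axis) of the 4 measured genes in each rat of the NS (blue) and MT (red) groups, with rat numbers, symbols by scan, open symbols where the probe was not well above background, and the group mean with its SD as a bar. In Slc18a3, Slc5a7 and Prph, MT rat 3 and NS rats 7 and 10 lie low and MT rat 4 lies highest, and the groups overlap.

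Of the 4 genes, 0 passed an adjusted p of 0.05, where 0.197% of all RNAs did, 0 had an unadjusted P below 0.05, where 16.4% did, and 0 met the study's criteria, where 2.73% of all RNAs did (1.74% higher and 0.996% lower in MT). For 0 of the 4 did every MT rat lie on one side of every NS rat, which held for 5.64% of all RNAs. Within scan 2, which holds both groups, MT rat 2 exceeded the mean of NS rats 6, 7 and 10 by 0.47 for Slc18a3, 0.50 for Slc5a7, 0.50 for Prph and 0.88 for Isl1. With 1 MT rat these within-scan values carry no replicate check in MT. Among the 3 NS rats of that scan alone, the highest exceeded the lowest by 0.70 for Slc18a3, 0.69 for Slc5a7, 0.78 for Prph and 1.21 for Isl1.

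The range within each group exceeded the difference between the groups, and the same rats were high or low in several genes. Between the highest and the lowest rat of a group, Slc18a3 varied 1.80-fold in MT and 1.62-fold in NS, Slc5a7 1.94-fold and 1.66-fold, Prph 1.88-fold and 1.72-fold, and Isl1 1.70-fold and 3.88-fold. Averaged over Slc18a3, Slc5a7 and Prph, each gene taken from its own mean over 10 rats, MT rats 4, 2, 5 and 1 deviated by 0.46, 0.28, 0.23 and 0.16, and MT rat 3 by -0.44. In NS, rats 6 and 8 deviated by 0.23 and 0.12, and rats 9, 7 and 10 by -0.20, -0.38 and -0.47. In 9 of 10 rats the deviation had the same sign in all 3 genes, positive in 5 and negative in 4. NS rat 8 was the exception, with Slc18a3 at -0.06 and the highest of the 3 at 0.22.

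Over the 10 rats the Pearson r was 0.969 between Prph and Slc5a7 (permutation p = 0.000190), 0.907 between Prph and Slc18a3 (permutation p = 0.000470) and 0.862 between Slc18a3 and Slc5a7 (permutation p = 0.00107). Adjusted over the 6 pairs computed, these p values were 0.00114, 0.00141 and 0.00214. The permutations shuffled all 10 rats without regard to group or scan, so a shift shared by a group or scan can enter these p values. No p was computed for the centred r given below. Spearman's rho was 0.770, 0.867 and 0.842 for the same pairs, with permutation p of 0.0123, 0.00231 and 0.00324 (adjusted 0.0246, 0.00972 and 0.00972). Leaving out the 2 rats farthest from the median of 1 gene of the pair gave r of 0.953, 0.915 and 0.901. For the first 2 pairs that gene was Prph and the rats were NS rats 7 and 10. For the third it was Slc18a3, with NS rats 9 and 10. After each value was centred within its group and scan, r was 0.970, 0.976 and 0.983. MT rat 2, the only MT rat of its scan, adds nothing to these r. High r were more frequent after centring: 2.06% of all RNAs had a centred r with Slc18a3 over 0.9, against 0.232% uncentred. Among the 5 MT rats alone r was 0.974, 0.991 and 0.981. Among the 5 NS rats alone it was 0.963, 0.792 and 0.706, and either group is too small for a test. No scan held more than 4 rats, and no r was computed for a single scan.

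Isl1 followed the other genes less closely. Its r was 0.796 with Prph (permutation p = 0.00610, adjusted 0.00778; rho 0.709, p = 0.0267, adjusted 0.0373) and 0.798 with Slc5a7 (permutation p = 0.00648, adjusted 0.00778; rho 0.697, p = 0.0311, adjusted 0.0373). With Slc18a3 it was 0.502 (permutation p = 0.144, adjusted 0.144; rho 0.455, p = 0.193, adjusted 0.193). Without NS rats 7 and 10, the 2 rats farthest from the median, these r fell to 0.520, 0.606 and 0.177, so over all rats the relations of Isl1 depended on those rats. Among the 5 MT rats alone, too few for a test, r was 0.925, 0.841 and 0.919. Among the 5 NS rats alone it was 0.821, 0.884 and 0.318, so with Slc18a3 the groups differed. Centred within group and scan, r was 0.937 with Prph, 0.843 with Slc5a7 and 0.870 with Slc18a3.

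**Figure D2:**
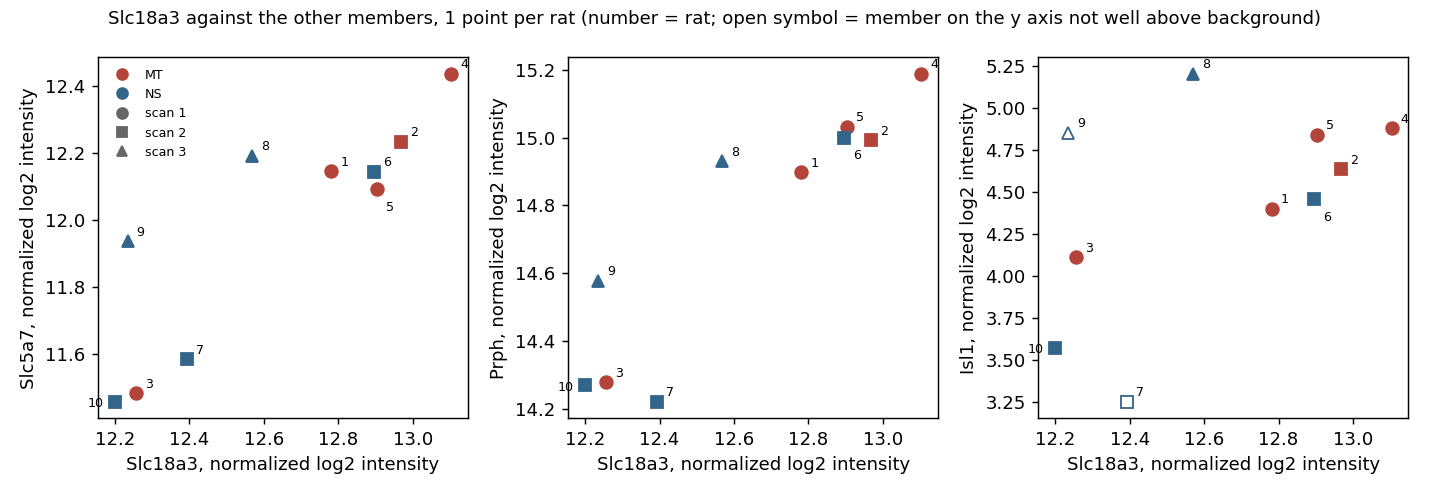
Normalized log2 intensity of Slc5a7, Prph and Isl1 (y axes) against that of Slc18a3 (x axes), 1 point per rat, MT in red and NS in blue, with symbols by scan and open symbols where Isl1 was not well above background. Slc5a7 and Prph rise with Slc18a3 in both groups, while NS rats 8 and 9 of scan 3 lie high for Isl1.

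The spread of the 3 bright genes between rats of a group was wide for their intensity. The pooled SD within groups was 0.307 for Slc18a3, 0.344 for Slc5a7 and 0.356 for Prph. The median was 0.210 over all RNAs and 0.129 over the 4746 RNAs with a mean log2 intensity of at least 11, of which 92.8%, 94.2% and 94.6% had a smaller SD than the 3 genes. Each of the 3 genes was read from 1 spot. For probes of the same brightness printed as 3 spots, the median SD among the spots of an array was 0.0452 to 0.0701. The spots of an array share its tissue piece, labelling, hybridization and scan. Their SD therefore does not hold the variation of those steps, whose part in the spread between rats was not tested. Fewer cells of a type and less RNA per cell cannot be told apart in whole tissue.

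The mRNAs most like Slc18a3 over the 10 rats were Csf3 (r = 0.977), a growth factor of granulocytes, Calca NM_001033956.1 (0.974), which encodes calcitonin and the neuropeptide CGRP, Rab3b (0.965), a small GTPase of secretory vesicles, Dyrk3 (0.964), a protein kinase, and Trpv2 (0.964), a cation channel. Centred within group and scan, their r was between 0.975 and 0.984. Csf3 ran from 6.88 in MT rat 3 to 9.19 in MT rat 4 in the MT group and from 6.83 in NS rat 10 to 8.24 in NS rat 6 in the NS group, a wider range than that of the transporters. Rab3b ran from 11.82 to 12.58 in MT and from 11.66 to 12.30 in NS, with the same rats at the ends. Of the 20220 RNAs compared, 47 (0.232%) had r over 0.9, and the median r was 0.02. All these values come from the same 10 arrays, and r here is a description without a test.

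Genes known from motor neurons, other than the 8 listed, had the highest median r to Slc18a3 of 8 lists, the measured genes (0.862) aside. Of 24 such genes 21 were tested, with 25 accessions, and their median r was 0.615. Of the 25 accessions 8 (32%) had r over 0.7, against 2.72% of all RNAs, and centred within group and scan 13 (52%) had, against 12.9% of all RNAs. They included Calcb (0.887), the second CGRP gene, Ret NM_001110099.1 (0.949) and Gfra1 (0.903), whose proteins together form the receptor of the growth factor GDNF, and Spp1 (0.7504), a secreted phosphoprotein of large motor neurons. The second accession of Ret, NM_012643.2, had an r of 0.168, and 0.719 after centring, so the accessions of this gene disagreed. Other genes of the list ran opposite to Slc18a3. The lowest r was -0.578 for Pou3f1 (-0.839 after centring), and those of Esrrg (-0.236) and Sv2a (-0.221) were also negative. The median r was 0.325 for the 16 acetylcholine receptor subunits and receptors, -0.160 for the 14 accessions of acetylcholine handling genes, 0.212 for the 10 general neuronal genes and 0.232 for the 13 glial accessions. In the general neuronal list only Stmn2, a tubulin-binding protein of axons, had r over 0.7 (0.931, 10% of the list). After centring 2 of 10 (20%) had, Tubb3 at 0.749 being the other. Of the acetylcholine handling accessions 2 (14.3%) had r over 0.7, both of Acly, and 4 (28.6%) after centring. Among the receptors 0 had, and 1 (6.25%) after centring. No glial accession had r over 0.7, before or after centring. The members of the lists were chosen with results of these data known, and the medians are descriptions.

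**Figure D3:**
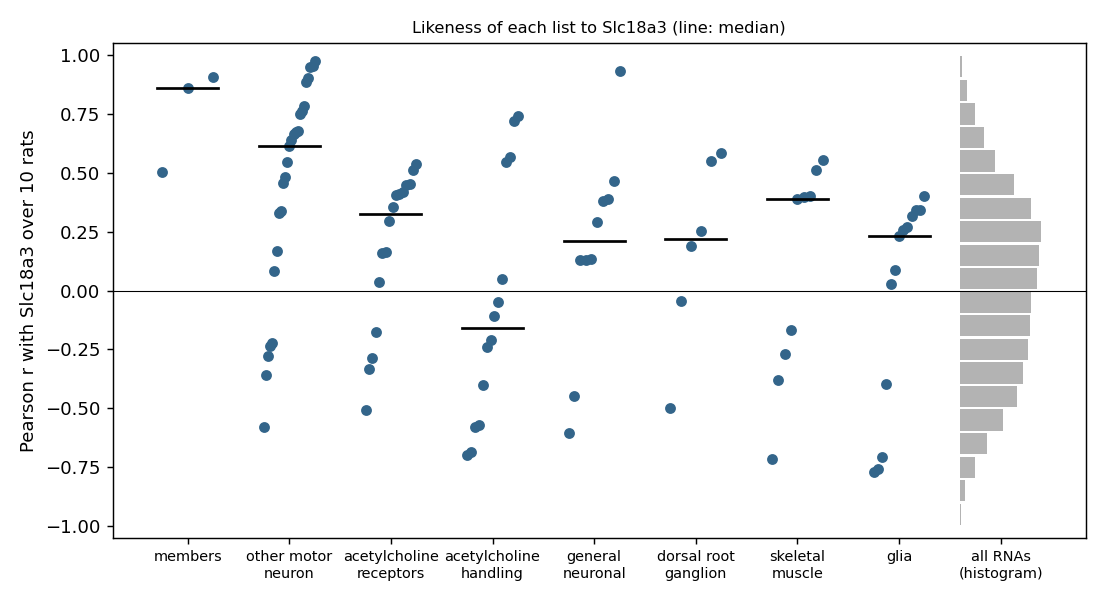
Pearson r with Slc18a3 over the 10 rats (y axis) for each accession of 8 gene lists, with the list median as a line, and a histogram of r over all 20220 RNAs at the right. The lists shown include the other measured genes and leave out the Schwann cell genes. The other motor neuron genes have a median of 0.615 and all RNAs a median of 0.02.

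Among these companions, the range over the 10 rats was 1.47 on the log2 scale for Calca NM_001033955.1, 1.45 for Calcb and 1.29 for Vipr2, a receptor of the peptide VIP. It was 0.98 for Slc5a7, 0.97 for Prph, 0.90 for Slc18a3 and 0.75 for Stmn2. The genes of inhibitory neurons had smaller ranges, with 0.50 for the glycine transporter Slc6a5, 0.43 for the GABA-making enzyme Gad1 and 0.36 for the vesicular transporter Slc32a1. In the rest of the general neuronal list Rbfox3 had a range of 0.46 and Elavl4 one of 0.40. Others were wider, with 0.88 for Eno2, 0.79 for Syt1, 0.76 for Tubb3 and 0.64 for Slc17a6. A wide range was thus not particular to the motor neuron genes. Nefh, the heavy neurofilament chain that large motor axons hold in abundance, had a range of 0.25 and an r of 0.083 with Slc18a3. Uncentred, the pattern thus did not extend to every gene of the list. Centred within group and scan, the r of Nefh was 0.625. The other neurofilament chains, Nefm and Nefl, had r of 0.615 and 0.481, and of 0.758 and 0.692 after centring. Nefh was very bright, between 16.55 and 16.81, and whether brightness narrowed its range was not tested. Gad1 was between 12.94 and 13.36 in MT and between 13.18 and 13.33 in NS.

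**Figure D4:**
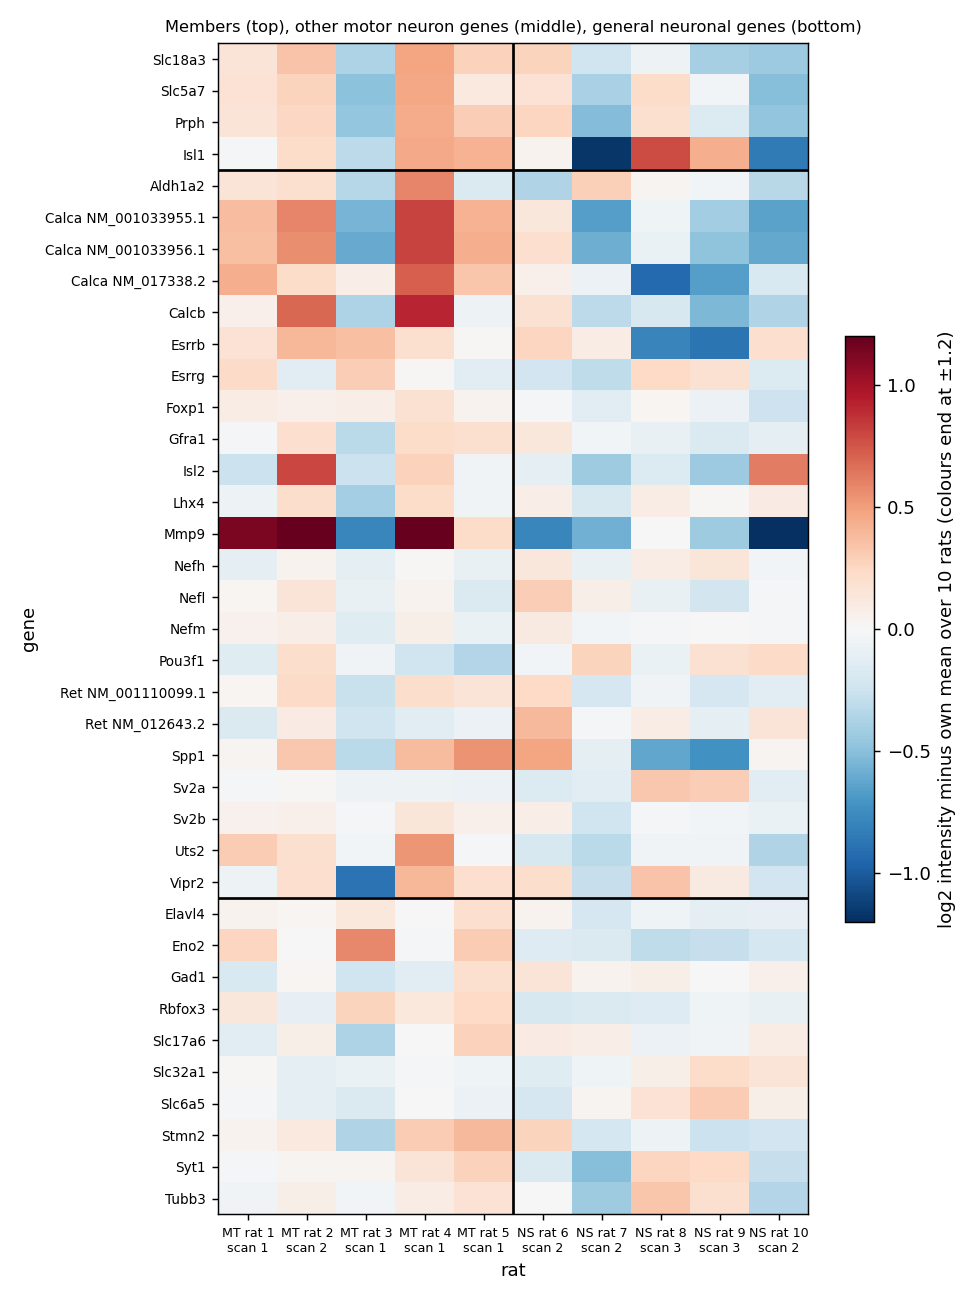
Deviation of the log2 intensity of each gene from its own mean over 10 rats (colour, ending at ±1.2), with 1 column per rat and its scan, for the 4 measured genes, the other motor neuron genes reported here and the general neuronal genes. Calca, Calcb and Stmn2 are pale or blue in MT rat 3 and NS rats 7 and 10 and red in MT rat 4, as are Slc18a3, Slc5a7 and Prph. Gad1, Slc32a1 and Nefh vary little, while Eno2, Syt1 and Tubb3 vary more.

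The differences between MT and NS in the other motor neuron genes were few. Of 21 genes tested, 2 met the study's criteria, both higher in MT, and 0 passed an adjusted p of 0.05 (5 had an unadjusted P below 0.05, as 16.4% of all RNAs had). For all RNAs 1.74% met the criteria in that direction. The median difference over the 25 accessions was 0.12, against -0.00 for all RNAs. Calca NM_001033955.1 was 13.21, 13.42, 12.28, 13.65 and 13.26 in MT rats 1 to 5 and 12.97, 12.18, 12.78, 12.42 and 12.19 in NS rats 6 to 10. MT rat 3 was as low as the low NS rats. The difference was 0.65 (SE 0.26, limma adjusted p = 0.261), and it was 0.62 (SE 0.26, limma adjusted p = 0.285) for NM_001033956.1. The third accession, NM_017338.2, was well above background on 5 MT arrays and 0 NS arrays, and no fold is given since the MT mean was not above the lowest intensity that counts as well above background in NS.

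Mmp9, a secreted protease that fast motor neurons and neutrophils make, was 7.85, 7.99, 5.94, 8.64 and 6.94 in MT rats 1 to 5 and 5.94, 6.15, 6.71, 6.29 and 4.76 in NS rats 6 to 10. MT rat 3 lay among the NS rats. The difference was 1.503 (SE 0.52, limma adjusted p = 0.209). The study listed Mmp9 as up-regulated and reported a significant change in the same direction by RT-qPCR. Uts2, which encodes the peptide urotensin, was between 12.644 and 13.20 in MT and between 12.31 and 12.636 in NS, a difference of 0.39 (SE 0.12, limma adjusted p = 0.183) without overlap of the groups. In this list 3 of the 21 genes tested had an accession without overlap, against 5.64% of all RNAs. Foxp1, a transcription factor of limb motor neurons, had a difference of 0.18 (limma adjusted p = 0.247). Without scan 3, and with scan as a fixed or a random block, 1 gene of the list met the criteria.

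On the receiving side, 16 of 21 acetylcholine receptor genes were tested, 1 met the study's criteria and 0 passed an adjusted p of 0.05 (4 had an unadjusted P below 0.05). Over all RNAs 2.73% met the criteria and 16.4% had such a P. Chrna6, a nicotinic subunit, was 9.05, 8.90, 8.91, 8.97 and 8.90 in MT rats 1 to 5 and 8.60, 8.13, 7.43, 7.503 and 8.78 in NS rats 6 to 10. All MT rats were above all NS rats, and the 2 lowest rats were those of scan 3. The difference was 0.86 (SE 0.25, limma adjusted p = 0.162; exact permutation p = 0.00794, the smallest the design allows). Without scan 3, or with scan as a fixed block, 0 genes of the list met the criteria.

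Of the other receptors, Chrm4, an inhibitory muscarinic receptor, had a difference of 0.27 (limma adjusted p = 0.232), Chrna1, a subunit of the muscle receptor, one of 0.40 (limma adjusted p = 0.265) and Chrnb4, a ganglionic nicotinic subunit, one of -0.43 (limma adjusted p = 0.282). For Chrm2, a muscarinic autoreceptor, the difference was -0.06 (limma adjusted p = 0.790) and for Chrna7 -0.16 (limma adjusted p = 0.770). The median difference over the 16 genes was 0.16.

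Of 15 genes that make, move or anchor the machinery of acetylcholine, 13 were tested with 14 accessions. Among them 0 met the study's criteria and 0 passed an adjusted p of 0.05 (1 had an unadjusted P below 0.05, against 16.4% of all RNAs), and the median difference was -0.02. Bche, the butyrylcholinesterase that also cleaves acetylcholine, was between 6.46 and 6.91 in MT and between 6.81 and 7.13 in NS, a difference of -0.27 (SE 0.11, limma adjusted p = 0.275). For Prima1, which anchors acetylcholinesterase in the membrane, the difference was 0.32 (limma adjusted p = 0.373), and for Rapsn, which clusters the muscle receptor, 0.41 (limma adjusted p = 0.496). For Lynx1, a brake on nicotinic receptors, it was 0.14 (limma adjusted p = 0.579).

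**Figure D5:**
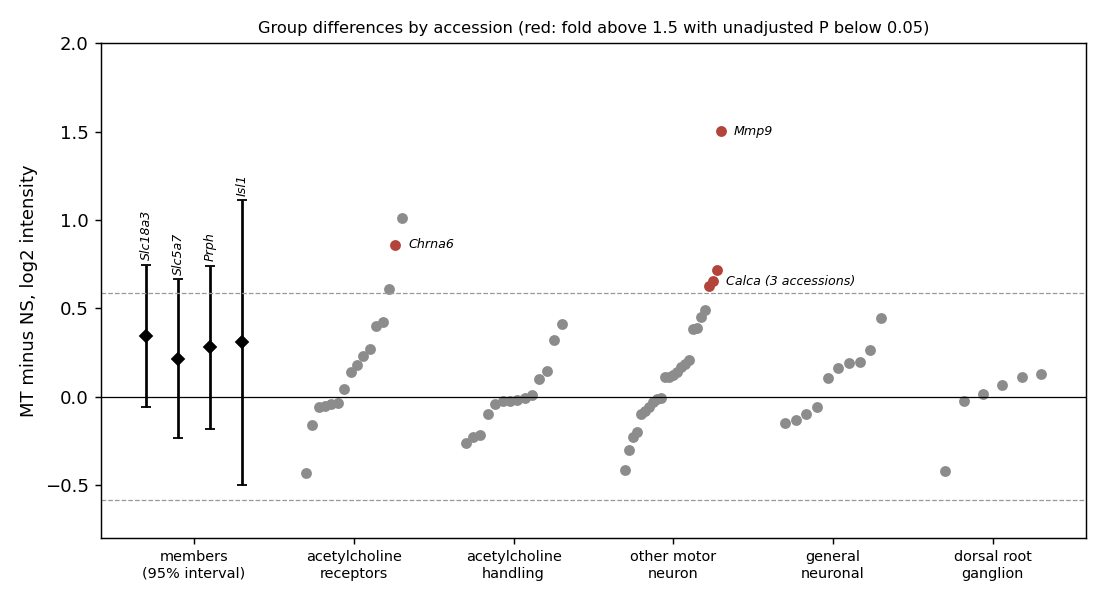
MT minus NS in log2 intensity (y axis) for the 4 measured genes with 95% intervals (diamonds) and for each accession of 5 gene lists (dots), with dashed lines at a linear fold of 1.5. Red dots met the study's criteria (Chrna6, Mmp9 and 3 accessions of Calca, 1 of them not well above background in NS), and the intervals of the 4 measured genes include 0.

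Markers of other tissues that a piece of lumbar cord could carry were set beside the rat-to-rat pattern. Of 10 dorsal root ganglion neuron genes 6 were tested and 3 were well above background on all 10 arrays, and their summed linear intensity was 1035 to 1289 in MT and 1045 to 1259 in NS. The sodium channel Scn10a, a defining gene, was at 3.12 to 3.61 in MT and 1.25 to 4.84 in NS and was well above background on 5 MT and 3 NS arrays. The median r of these genes with Slc18a3 was 0.221, and P2rx3 had the highest, 0.585. Of 7 Schwann cell and nerve root genes 3 were tested. Their sums were 301 to 538 in MT and 301 to 502 in NS, and their median r was 0.113. Of 9 skeletal muscle genes 8 were tested, with sums of 1386 to 1700 in MT and 1003 to 1461 in NS and a median r of 0.390. In none of these 3 lists did an accession have r over 0.7, and no gene was listed at 0. This depended on how genes were assigned to lists. Prph, which ganglion neurons also make, was counted with the measured genes (0.907). Calca, Calcb, Ret and Gfra1 were counted with the motor neuron genes, and which cells their RNA came from was not tested. Centred within group and scan, 2 of 6 ganglion accessions (33.3%) had r over 0.7, P2rx3 at 0.808 and Scn11a at 0.725, with a list median of 0.452. So did 1 of 9 muscle accessions (11.1%), Myh2 at 0.921, with a list median of 0.359, and none of the 3 Schwann cell accessions, with a list median of 0.495. The sum of ganglion genes came mostly from Drgx, a transcription factor that dorsal horn neurons also make. In MT rat 3, the lowest MT rat of the transporters, Drgx at 10.09, Trpv1 at 6.01 and Trpa1 at 3.69 were the highest of the MT group. In the same rat P2rx3 at 6.75, Scn11a at 2.91 and Scn10a at 3.12 were the lowest of that group. The part of other tissues or of how the piece was cut in the pattern was not tested.

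Of the 10 general neuronal genes 0 met the criteria and 0 passed an adjusted p of 0.05 in limma (3 had an unadjusted P below 0.05, against 16.4% of all RNAs). The difference was 0.45 for Eno2, the neuronal enolase (SE 0.11, limma adjusted p = 0.129), 0.27 for Rbfox3, the NeuN antigen (SE 0.08, limma adjusted p = 0.167) and 0.16 for Elavl4, an RNA-binding protein (SE 0.07, limma adjusted p = 0.290). Their r with Slc18a3 was 0.128, 0.130 and 0.466, and centred within group and scan it was -0.661, -0.774 and 0.208.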

How the data were processed

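Total RNA of the lumbar enlargement of 5 MT and 5 NS rats was labelled by random priming and hybridized to one-colour 4 × 44k rat lncRNA arrays. Per the file headers, the authors deposited scanner output with background-subtracted spot intensity (Agilent Feature Extraction 11.0.1.1), and they deposited a table of quantile-normalized log2 intensities made in GeneSpring. Here intensities were converted to log2 and quantile normalized, outlier spots were dropped, spots of a probe and probes of an accession were averaged, and probes with more than 50% of spots well above background on at least 5 arrays were kept, in R 4.3.3 with limma 3.58.1 and data.table (version 1.17.8). These values correlated with the deposited table with r between 0.993 and 0.999 per array. Symbols came from RefSeq (GRCr8) by accession and covered 14274 of 15323 mRNA probes, while the array was designed on an older build, so no gene coordinates are given beyond those of the RefSeq promoters.

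MT was compared with NS by limma over 20283 RNAs with Benjamini-Hochberg adjustment. The study's threshold was taken as 1.5 on the linear fold scale, with P under 0.05 before adjustment. Single genes were also tested by exact permutation and correlations by 100000 permutations. The genes and lists were chosen with earlier results of these data known. Genes named were the 4 measured, list members past the criteria and up to 4 with the smallest P, and the 5 mRNAs most like Slc18a3. Slc18a3 replaced Chat, which had no matching probe. Other genes named were chosen after their values were seen. Alternatives were other scaling, background correction (normexp on the median signal, as the files hold no mean signal), filters, tests, scan as a block, the deposited table and leaving out each rat. The steps were tested on simulated arrays with 200 changed RNAs. The number of arrays limits the precision, p values measure the spread between rats, and no sample was excluded. Some list members counted in the totals are not reported here by name. Python 3.11.15 and matplotlib 3.10.9 drew the figures.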

Additional observations from a re-analysis of the deposited data

Results flagged for a closer look

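Chrna1, a subunit of the muscle acetylcholine receptor, was flagged because NS rat 7 stood apart in its group, at 6.88 where the other NS rats were between 6.21 and 6.29 (gap over range 0.886). Chrm4, a muscarinic receptor, was flagged because MT rat 5 stood apart, at 7.35 where the other MT rats were between 6.92 and 7.03 (gap over range 0.746). The bound for 5 rats is 0.71. These were 2 of 44 groups examined, and chance flags about 1 in 20.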

How the results depend on the processing

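Of the 4 measured genes, 0 passed an adjusted p of 0.05 in any of the 14 alternatives or with any rat left out, and none of their differences changed sign. Across the alternatives the difference was 0.29 to 0.47 for Slc18a3, 0.15 to 0.50 for Slc5a7, 0.26 to 0.50 for Prph and 0.11 to 0.88 for Isl1. With 1 rat left out the ranges were 0.27 to 0.48, 0.11 to 0.36, 0.18 to 0.43 and 0.05 to 0.54. Scaling by the 75th percentile gave Isl1 0.59, so that 1 measured gene met the study's criteria, and leaving out scan 3 gave Isl1 0.81 and again 1 gene. With a filter on all 10 arrays Isl1 was not tested. Of the receptor genes 3 met the criteria under 75th percentile scaling and 0 with array weights, with scan as a fixed block, without scan 3 and in scan 2 only, and between 1 and 2 with 1 rat left out (2 without NS rat 6 or 10). Of the other motor neuron genes 1 met them with scan as a fixed block, with scan as a random block and without scan 3, and between 2 and 3 with 1 rat left out. The acetylcholine handling list stayed at 0. The cause of these changes was not tested. The r between Slc18a3 and Slc5a7 was 0.832 to 0.988 across 7 alternatives and 0.820 to 0.929 with 1 rat left out, that between Slc18a3 and Prph 0.891 to 0.977 and 0.883 to 0.936, and that between Slc5a7 and Prph 0.936 to 0.976 and 0.962 to 0.981. The use of Slc18a3 for Chat, of the median signal and of these r under the alternatives was chosen after seeing the data. No paired analysis was possible because the rats of the 2 groups share no replicate numbers. Over all RNAs the number past an adjusted p of 0.05 was 40, and it ranged from 0 with scan as a block to 183 with array weights. Between 58.6% and 63.8% of spots were well above background in scan 3, and Isl1 was not on 2 NS arrays.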
